A study of Mus musculus with 6 samples.

Results

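The endoplasmic reticulum (ER) is the compartment into which secreted and membrane proteins are threaded through the Sec61 channel, folded by chaperones and crosslinked by protein disulfide isomerases. When unfolded proteins build up there, the sensors IRE1, PERK and ATF6 start the unfolded protein response (UPR), which works through the transcription factors XBP1, ATF4 and ATF6 and raises chaperones, degradation factors and, through ATF4 and CHOP, genes of amino acid supply. The machinery is known to be prominent in cells with a heavy secretory load, among them collagen-secreting fibroblasts and the zymogen-secreting chief cells of the gastric gland.

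The genes described here are a list of 36 ER chaperone, translocon and UPR genes, taken by symbol. Of these, 35 were among the 14228 genes of the count table, and Spcs2 is not analysed here. After a filter on low counts 34 of the 35 were tested, with Sec61g under the filter, among 10148 genes tested in all.

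MARS-seq, which counts RNA 3′ ends, was run on stomach fibroblasts sorted from mice with induced gastric cancer (cancer-associated fibroblasts, CAF, 3 libraries) and from control mice (normal, 3 libraries). All mice of both groups, carried the triple-transgenic iLgr5;GLI2A alleles, a model known for switching on an active GLI2 in Lgr5-expressing cells, and were 8 weeks old. CAF mice received tamoxifen in corn oil for 5 days and then chow with doxycycline for 3 weeks, and their water held doxycycline for the first 3 days, whereas normal mice received corn oil and no doxycycline. Drug and cancer therefore cannot be told apart. Cells were live and podoplanin-positive after removal of cells with CD31, CD45 or EpCAM. CAF libraries 1, 2 and 3 held 1, 2 and 2 mice, and normal libraries 1, 2 and 3 held 1, 1 and 2 mice.

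Library totals ranged from 644522 to 6422568 counts in CAF and from 768420 to 3259644 in normal fibroblasts. Markers of gastric gland cells (pit and neck, chief, parietal and enteroendocrine, 25 genes in the table) made up 0.610%, 0.868% and 0.640% of counts in the CAF libraries (in order of number), against 20.2%, 16.5% and 4.19% in the normal ones. Fibroblast markers (12 of 12 in the table) took 1.17% to 3.94% in CAF and 0.453% to 1.62% in normal libraries. Immune markers (9 genes in the table) took 0.0115%, 0.188% and 0.0403% in CAF libraries and 0.00531%, 0.0731% and 0.0116% in normal libraries 1 to 3. Among them Ptprc, the gene of the CD45 gate, was at most 5.52 CPM (counts per 1000000 counts of scaled library size) and at 0 counts in CAF library 1 and normal libraries 1 and 3, while the neutrophil gene S100a9 reached 1076 CPM in CAF library 2 and 452 CPM in normal library 2. Col1a1 was at 329 to 1591 CPM in CAF and 138 to 368 CPM in normal libraries, and Pdpn, the gene of podoplanin, at 27.8 to 121 CPM in CAF and 5.71 to 34.2 CPM in normal libraries. Epcam, of the negative gate, was at 114 to 233 CPM in CAF and 13.8 to 150 CPM in normal libraries. General epithelial markers, 8 genes with Epcam among them, took 0.414%, 0.181% and 0.178% in CAF and 0.364%, 0.207% and 0.109% in normal libraries 1 to 3. They differed in direction. Krt7 was at 291 to 966 CPM in CAF and 3.75 to 69.4 CPM in normal libraries, and Krt19 at 151 to 155 CPM in CAF and 434 to 986 CPM in normal libraries. Libraries also differed in the base composition of what they captured. CAF libraries 2 and 3 and normal library 2 held relatively more of transcripts with a low GC content in their last 500 bases (the GC-poor side), and CAF library 1 and normal libraries 1 and 3 held less (the GC-rich side). Each side holds both groups, but 1 of the groups by a lone library: normal library 2 on the GC-poor side and CAF library 1 on the GC-rich side. A comparison within a side therefore has no replicates in that group. In these bulk libraries fewer cells of a type and less RNA per cell cannot be told apart.

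None of the 34 tested ER and UPR genes passed an adjusted p of 0.05 between CAF and normal fibroblasts (edgeR, quasi-likelihood test, Benjamini-Hochberg over all genes), against 1.10% of all genes tested, 0.897% higher and 0.207% lower in CAF. At an unadjusted p under 0.05 there were 5 of 34, against 15.3% of all genes. Of these, 2 were higher in CAF (7.37% of all genes) and 3 lower (7.97%). Of the 34 genes 25 had a positive fold change (73.5%, against 53.9% of all genes), and the median log2 fold change was 0.38, against 0.06 over all genes. Without CAF library 1 the median was 0.17. The 3 CAF libraries lay above all 3 normal libraries for 6 of the 34 genes, against 10.6% of all genes, and below them for 4, against 9.35%. Summed, the 35 genes held 1.20%, 1.11% and 0.994% of all counts in CAF libraries 1 to 3, against 0.642%, 0.690% and 0.742% in normal libraries 1 to 3. In CPM on the scaled library sizes the sums were 11272, 9809 and 8636 in CAF and 8536, 7897 and 7126 in normal libraries, so the groups were separate on both scales, narrowly on the second. Calr and P4hb were the most abundant members in every library and weigh most in these sums. The sums therefore do not describe a shift of the whole list.

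**Figure D1:**
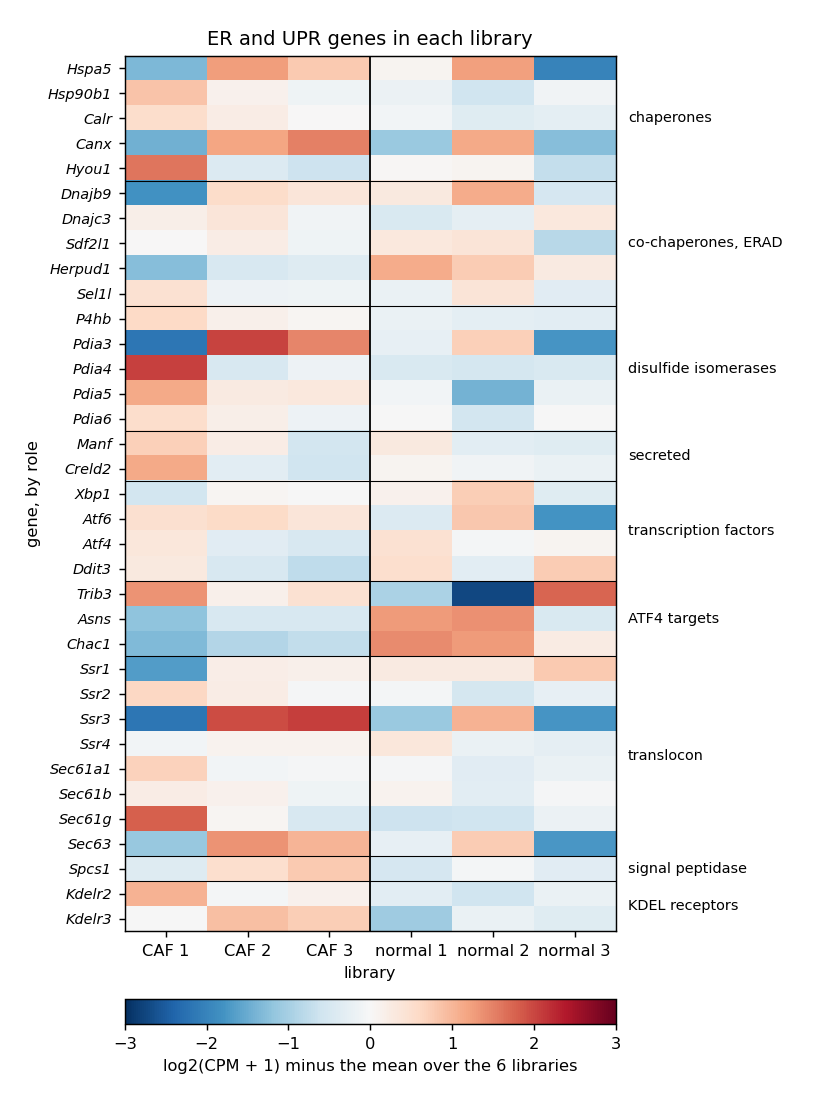
Level of the 35 ER and UPR genes (rows, by role) in the 3 CAF and 3 normal libraries (columns), as log2(CPM + 1) minus the gene's mean over the 6 libraries. Herpud1, Asns and Chac1 are low in all 3 CAF libraries, whereas Hspa5, Canx, Pdia3, Ssr3 and Sec63 are high in CAF 2, CAF 3 and normal 2 and low in CAF 1 and normal 3.

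Promoters of 6 members are printed to show the stress-response motif that each holds: the 3 lowest in CAF relative to normal fibroblasts, then Kdelr3, Calr and Hspa5, which hold the other elements. Sequences are from RefSeq on GRCm38.p6, which had a promoter for 30 of the 36 listed genes, and the 250 bases before the start site were searched on both strands. Capitals mark the fixed letters of a match to the C/EBP-ATF response element bound by ATF4 (TGATGNAA), the ER stress elements (ERSE, CCAAT and CCACG with 9 free bases between them, and ERSE-II, ATTGG and CCACG with 1 free base between them) or the unfolded protein response element (UPRE, TGACGTGG).
Herpud1: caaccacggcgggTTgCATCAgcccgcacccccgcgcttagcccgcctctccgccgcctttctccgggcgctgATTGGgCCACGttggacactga
Asns: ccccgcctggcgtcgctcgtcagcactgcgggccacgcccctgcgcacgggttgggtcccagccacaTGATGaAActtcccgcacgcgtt
Chac1: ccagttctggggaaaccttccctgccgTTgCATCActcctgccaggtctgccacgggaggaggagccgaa
Kdelr3: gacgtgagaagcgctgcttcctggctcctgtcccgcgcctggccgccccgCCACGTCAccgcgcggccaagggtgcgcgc
Calr: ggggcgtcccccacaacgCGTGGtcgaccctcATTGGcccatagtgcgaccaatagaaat
Hspa5: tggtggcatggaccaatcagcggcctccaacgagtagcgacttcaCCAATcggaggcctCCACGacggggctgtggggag

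The stretches are chr8:94386304-94386398 (plus strand) for Herpud1, chr6:7693210-7693299 (minus) for Asns, chr2:119351022-119351091 (plus) for Chac1, chr15:79516328-79516407 (plus) for Kdelr3, chr8:84847052-84847111 (minus) for Calr and chr2:34771980-34772059 (plus) for Hspa5. The ATF4-type element was found in 3 of the 30 promoters, those of Herpud1, Asns and Chac1, and in 3.45% of all 32851 promoters. These 3 genes are also the members with the lowest log2 fold changes, but the motif was chosen with the members' values known, so this is a description and supports nothing. The ERSE was found in 7 of 30, those of Hspa5, Hsp90b1, Calr, Canx, Dnajc3, Pdia6 and Creld2, and in 0.113% of all promoters. The fitted log2 fold changes of these 7 ran from 0.26 to 0.94, and none passed. Positive values are common here (73.5% of members and 53.9% of all genes), and those of Hspa5, Creld2 and Dnajc3 turned negative in other settings (-0.46 with the GC side as a block, -0.39 without CAF library 1 and -0.82 with the gland share as a covariate). ERSE-II was found only in Herpud1 among the 30 (0.0304% of all promoters) and the UPRE only in Kdelr3 (0.563%). No 2 of these matches overlapped each other. The elements were first described on promoters of genes such as Hspa5 and Herpud1, so their share among these genes is not a finding, and a match is not evidence that a factor binds there.

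Herpud1, Asns and Chac1, which are known targets of the PERK and ATF4 arm, were the lowest of the 34 in CAF relative to normal fibroblasts. They are put together here with their values known, and they do not stand for the arm as a whole. Trib3, another target of ATF4 and CHOP, had a log2 fold change of 0.37. The amino acid response list, described below, had a median of 0.20 over 17 tested genes, 10 positive and 7 negative. Herpud1 is a membrane protein of ER-associated degradation, which returns misfolded proteins to the cytosol. It was at 70.2, 124 and 131 CPM in CAF libraries 1 to 3, against 376, 293 and 210 CPM in normal libraries 1 to 3. All CAF libraries lay below all normal libraries, and normal library 3, with the lowest gland share, was the nearest to CAF. Herpud1 was 2.68-fold lower in CAF (log2 fold change -1.42 with an SE of 0.38) and did not pass (edgeR, adjusted p = 0.112).

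Asns makes asparagine from aspartate and is induced by ATF4 when amino acids are short. It was at 23.4, 39.5 and 39.6 CPM in CAF libraries 1 to 3, against 135.9, 146 and 40.0 CPM in normal libraries 1 to 3. The difference was in normal libraries 1 and 2, while normal library 3 was level with CAF libraries 2 and 3. Over all 6 libraries Asns was 3.09-fold lower in CAF (log2 fold change -1.63 ± 0.51 SE, edgeR adjusted p 0.175) and did not pass. Chac1, a glutathione-degrading enzyme downstream of ATF4 and CHOP, was at 1.46, 2.35 and 2.71 CPM in CAF libraries 1 to 3, against 15.5, 13.9 and 6.25 CPM in normal libraries 1 to 3. These levels rest on 1, 17 and 20 counts in CAF and 38, 11 and 5 counts in normal libraries. Chac1 had the lowest fold change of the 34 genes, 5.09-fold lower in CAF (log2 fold change -2.35 ± 0.57 SE, edgeR adjusted p 0.0930), and did not pass either.

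In the authors' deposited table the adjusted p-value was 0.0125 for Herpud1 and 0.0150 for Chac1, with log2 fold changes of -1.44 and -2.38, and no other member was under 0.05 there (3.61% of its genes were lower and 2.76% higher in CAF by this rule). DESeq2 run on the same counts gave 0.0113 and 0.0135 and called no other member (7.28% of all genes called, 3.12% higher and 4.17% lower). Without normal library 3, edgeR called all 3 genes lower in CAF (10.0% of all genes called, 3.47% higher and 6.57% lower), with adjusted p = 0.0316 for Herpud1, 0.0131 for Asns and 0.0251 for Chac1. With normal libraries 1 and 2 left out instead, the log2 fold changes were -0.88 for Herpud1, -0.14 for Asns and -1.32 for Chac1 (adjusted p = 0.520, 0.925 and 0.544 by edgeR), with the lone normal library assumed to vary like the CAF libraries. With the log2 gland share as a covariate they were 0.0040, 1.91 and -0.021 (adjusted p = 0.999, 0.440 and 0.997 by edgeR). The gland share was higher in every normal than in every CAF library, so that fit has little left with which to estimate the group term.

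**Figure D2:**
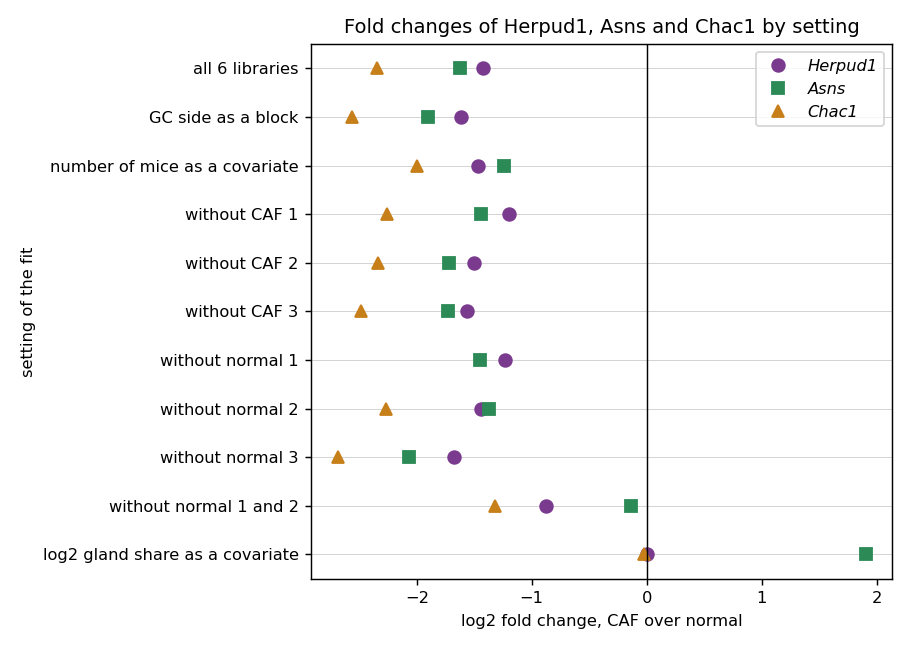
Fitted log2 fold change of CAF over normal fibroblasts (x axis) of Herpud1, Asns and Chac1 in each setting of the edgeR fit (y axis). Points lie left of 0 with any 1 library left out and move to -0.88, -0.14 and -1.32 without normal libraries 1 and 2, and Chac1 was below the filter without normal library 1. With the log2 gland share as a covariate they lie at 0.0040, 1.91 and -0.021, in a fit with little left to estimate the group term.

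The transcription factors that drive these targets had smaller differences. Atf4, whose protein level is controlled mainly by translation, was at 805, 499 and 454 CPM in CAF and 870, 614 and 678 CPM in normal libraries 1 to 3. Ddit3, which encodes CHOP, was at 114, 65.6 and 54.1 CPM in CAF and 131, 73.5 and 158 CPM in normal libraries 1 to 3. Both had overlapping groups and did not pass, at log2 fold changes of -0.30 and -0.65 (adjusted p = 0.767 and 0.542 by edgeR). Trib3, a pseudokinase induced by ATF4 and CHOP, did not share the order of Asns and Chac1. It was at 16.1, 6.49 and 8.12 CPM in CAF and at 2.45, 0 and 21.3 CPM in normal libraries 1 to 3 (log2 fold change 0.37, adjusted p = 0.923 by edgeR), and the 0 counts of normal library 2 allow a level of up to 3.80 CPM.

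Xbp1, the target of the IRE1 nuclease, was at 262, 398 and 378 CPM in CAF and 418, 640 and 299 CPM in normal libraries 1 to 3 (log2 fold change -0.39, adjusted p = 0.715 by edgeR). Counts per gene do not separate its spliced from its unspliced form. Atf6, the membrane-bound sensor and factor, was at 21.9, 23.5 and 20.3 CPM in CAF and 11.4, 27.9 and 3.75 CPM in normal libraries 1 to 3 (log2 fold change 0.63, adjusted p = 0.713 by edgeR). The spread was wider among normal than among CAF libraries, but the normal levels rest on 28, 22 and 3 counts.

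On the other side, 6 members lay higher in all 3 CAF than in all 3 normal libraries: Kdelr3, Kdelr2, Pdia5, P4hb, Calr and Ssr2, none of which passed. KDEL receptors return escaped ER proteins from the Golgi. Kdelr3 was at 116, 218 and 193 CPM in CAF and 55.1, 100 and 90.0 CPM in normal libraries 1 to 3. It had no overlap and was 2.17-fold higher (log2 fold change 1.12 ± 0.38 SE, edgeR adjusted p 0.211). Kdelr3 overlaps Ddx17 on the opposite strand, and without strand information their reads cannot be told apart. The same holds for Hsp90b1 with 1810014B01Rik, Pdia3 with Catsper2, Pdia6 with Atp6v1c2, Spcs1 with Glt8d1 and Manf with Dcaf1, and Manf also overlaps Rbm15b on its own strand. Kdelr2 was at 483, 227 and 255 CPM in CAF and 190, 155 and 206 CPM in normal libraries 1 to 3, also without overlap, with CAF library 1 standing well above the other CAF libraries (1.75-fold, edgeR adjusted p 0.375).

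The 5 disulfide isomerases had fitted log2 fold changes from 0.38 to 1.39, with a median of 1.07, and Pdia3, Pdia4 and Pdia6 overlapped between the groups. Pdia5 was at 146, 80.6 and 83.0 CPM in CAF and 62.8, 24.1 and 57.5 CPM in normal libraries 1 to 3. The groups did not overlap, and Pdia5 was 2.11-fold higher in CAF (log2 fold change 1.07 ± 0.44 SE, edgeR adjusted p 0.305). P4hb, which is both an isomerase and a subunit of the collagen prolyl 4-hydroxylase, was at 1944, 1412 and 1328 CPM in CAF and 1102, 1046 and 1022 CPM in normal libraries 1 to 3. It was 1.48-fold higher with no overlap (edgeR adjusted p 0.491). Pdia4 was at 217, 36.6 and 46.3 CPM in CAF and 37.5, 35.5 and 37.5 CPM in normal libraries 1 to 3, so that its log2 fold change of 1.39 rested on CAF library 1 and was 0.17 without it. Pdia6 overlapped between the groups at 543 to 878 CPM in CAF and 414 to 599 CPM in normal libraries.

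Calr and Canx are the lectin chaperones that hold glycoproteins until they are folded. Calr was at 1975, 1604 and 1399 CPM in CAF and 1291, 1065 and 1116 CPM in normal libraries 1 to 3. The groups did not overlap, but the difference was small, 1.43-fold (log2 fold change 0.52 with a 95% interval of -0.24 to 1.28, adjusted p = 0.531 by edgeR). Hsp90b1, the ER member of the HSP90 family, was at 1065, 642 and 540 CPM in CAF and 520, 390 and 548 CPM in normal libraries 1 to 3, where normal library 3 lay above CAF library 3. Hyou1, a nucleotide exchange factor of BiP, was at 60.0, 13.9 and 12.0 CPM in CAF and 19.6, 20.3 and 11.3 CPM in normal libraries 1 to 3. Its log2 fold change of 0.63 turned to -0.40 without CAF library 1.

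**Figure D3:**
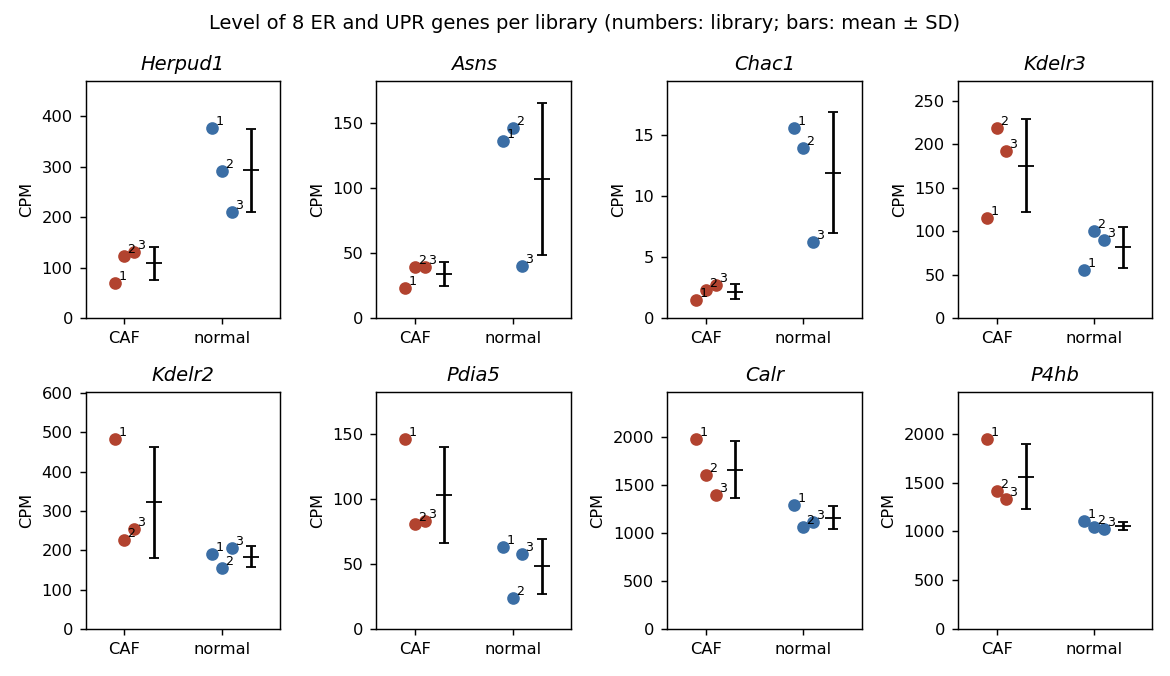
Level in CPM (y axis, from 0) of 8 ER and UPR genes in the 3 CAF (left) and 3 normal (right) libraries, with the library number beside each point and the mean ± SD in black. The groups do not overlap for any of the 8, and for Asns normal library 3 (40.0 CPM) lies just above CAF library 3 (39.6 CPM).

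Some members were highest in the libraries of the GC-poor side, and their groups overlapped. Hspa5, which encodes BiP, the main ER chaperone and the repressor of all 3 UPR sensors, was at 102, 624 and 454 CPM in CAF and 275, 613 and 65.0 CPM in normal libraries 1 to 3. It was thus high in CAF libraries 2 and 3 and normal library 2 and low in CAF library 1 and normal library 3. Canx was at 8.78, 59.8 and 74.9 CPM in CAF and 11.4, 58.3 and 10.0 CPM in normal libraries 1 to 3. Pdia3, the isomerase that works with Calr and Canx, was at 23.4, 449 and 306 CPM in CAF and 91.8, 180 and 31.3 CPM in normal libraries 1 to 3. Ssr3, a subunit of the translocon-associated complex TRAP, was at 10.2, 196 and 211 CPM in CAF and 22.4, 104 and 13.8 CPM in normal libraries 1 to 3. Sec63, which passes BiP to the translocon, was at 4.39, 29.0 and 23.1 CPM in CAF and 8.98, 19.0 and 2.50 CPM in normal libraries 1 to 3. The low levels in CAF library 1 and normal library 3 rest on few counts: 3 and 2 for Sec63, 6 and 8 for Canx and 7 and 11 for Ssr3. These 5 genes are put together here because the 3 libraries of the GC-poor side were the highest, whichever group they came from. That order is therefore no finding about them, and its share over all tested genes was not counted. Dnajb9 and Spcs1, described below, also had their 3 highest levels in the libraries of that side. The immune marker share was also highest in these 3 libraries, at 0.188% in CAF library 2, 0.0403% in CAF library 3 and 0.0731% in normal library 2, and its part in the levels was not tested.

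The log2 fold changes of these 5 genes over all 6 libraries, 0.31 for Hspa5, 0.94 for Canx, 1.37 for Pdia3, 1.62 for Ssr3 and 0.99 for Sec63, did not pass (adjusted p from 0.547 to 0.913 by edgeR). A fit with the side as a block, added once the data had been seen, gave -0.46, 0.024, -0.068, 0.25 and 0.11 in the same order. For Dnajb9 that fit gave -1.14 (adjusted p = 0.265 by edgeR). Within the GC-poor side (CAF libraries 2 and 3 against normal library 2) Hspa5 was at -0.21, Canx at 0.18, Pdia3 at 1.04, Ssr3 at 0.94 and Sec63 at 0.43, and within the GC-rich side (CAF library 1 against normal libraries 1 and 3) Hspa5, Pdia3 and Ssr3 were at -0.78, -1.45 and -0.87, while Canx and Sec63 were under the count filter there. None of these passed. The fitted value of Hspa5 was thus negative on both sides, but its groups overlapped on each, so no direction is settled. Pdia3 and Ssr3 pointed in opposite directions on the 2 sides. The difference between the sides went with the GC content of the last 500 transcript bases across the 34 tested genes (Pearson's r = -0.57, n = 34 genes measured in the same 6 libraries, given as a description). The sides were set by each library's correlation with this GC content over all tested genes. A negative r is therefore no independent finding. Hspa5, Canx and Ssr3 had a GC content of 37.5%, 37.4% and 36.4%, Sec63 33.0% and Pdia3 42.8%. Pdia4 (37.4%) and Dnajc3 (32.6%) had as low a GC content without being higher on the GC-poor side. For Herpud1, Asns and Chac1 the sides differed by -0.074, 0.27 and -0.22 on the log2 scale, and their log2 fold changes with the side as a block were -1.62, -1.90 and -2.56 (adjusted p = 0.101, 0.118 and 0.0928 by edgeR). The only normal library of the GC-poor side is normal library 2, with a gland share of 16.5%, against 0.868% and 0.640% in CAF libraries 2 and 3. Normal library 3, level with these CAF libraries for Asns, is left out there. In the fit of that side CAF libraries 2 and 3 alone set the spread. Pdia5 was lowest in normal library 2, at 19 counts. On the GC-poor side alone, with 4.62% of all genes called higher and 6.97% lower, edgeR called Asns and Herpud1 lower (adjusted p = 0.00613 and 0.0279) and Pdia5 higher in CAF (adjusted p = 0.0174).

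**Figure D4:**
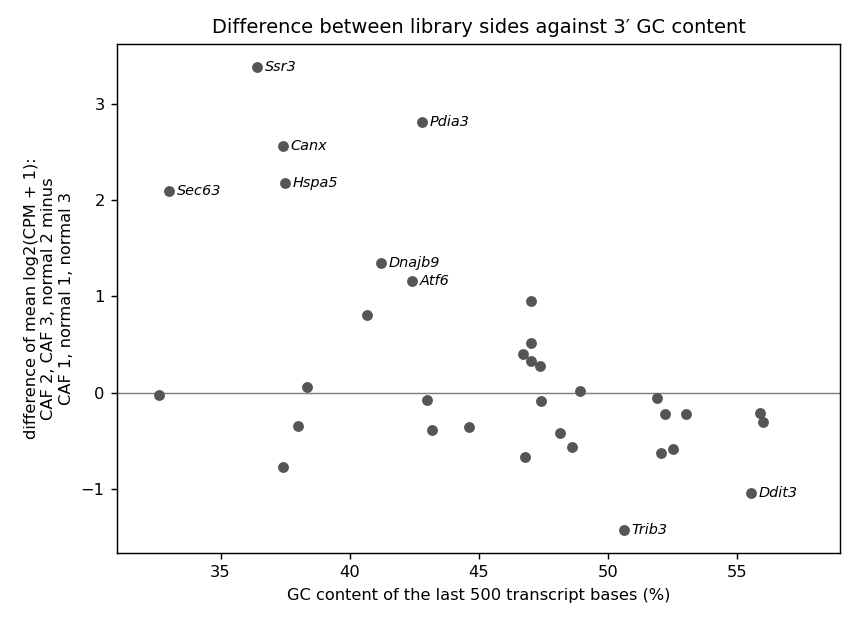
Difference in mean log2(CPM + 1) between the GC-poor side (CAF 2, CAF 3 and normal 2) and the GC-rich side (CAF 1, normal 1 and normal 3) of the libraries (y axis) against the GC content of the last 500 transcript bases (x axis), 1 point for each of the 34 tested genes, named where the difference is over 1. Ssr3, Pdia3, Canx, Hspa5 and Sec63 are over 2 higher on the GC-poor side, and Trib3 and Ddit3 over 1 lower. The sides themselves were set by this GC content over all tested genes.

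The other translocon genes varied less. Ssr2, another TRAP subunit, was at 612, 466 and 390 CPM in CAF and 380, 274 and 336 CPM in normal libraries 1 to 3, without overlap (1.48-fold higher in CAF, edgeR adjusted p 0.484). Ssr1 had the opposite order, at 5.85, 23.7 and 23.0 CPM in CAF and 25.3, 25.3 and 36.3 CPM in normal libraries 1 to 3 (log2 fold change -0.63, adjusted p = 0.641 by edgeR). The Sec61 channel genes Sec61a1 and Sec61b were at 304 to 519 and 329 to 426 CPM in CAF and 253 to 312 and 293 to 388 CPM in normal libraries (log2 fold changes of 0.42 and 0.15). Ssr4 was at 353 to 407 CPM in CAF and 310 to 476 CPM in normal libraries (0.060), and all 3 genes overlapped between the groups. For Ssr4 the 95% interval was -0.66 to 0.78, which does not exclude a difference in either direction. Spcs1, of the signal peptidase complex, was at 55.6 to 125 CPM in CAF and 51.0 to 69.7 CPM in normal libraries (log2 fold change 0.69). Sec61g had 12, 33 and 21 counts in CAF and 6, 2 and 3 counts in normal libraries 1 to 3, which was under the filter.

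The remaining members also overlapped between the groups. Manf and Creld2, small secreted ER stress proteins, were at 184 to 442 and 58.6 to 196 CPM in CAF and 209 to 328 and 77.5 to 94.7 CPM in normal libraries, with log2 fold changes of 0.31 and 0.32. For Creld2 CAF library 1 was again the highest, and the log2 fold change was -0.39 without it. The BiP co-chaperones Dnajb9, Dnajc3 and Sdf2l1 were at 5.85 to 34.5, 77.2 to 107 and 21.1 to 27.2 CPM in CAF. In normal libraries they were at 16.3 to 51.9, 60.4 to 104 and 12.5 to 30.4 CPM, and their log2 fold changes were -0.38, 0.26 and -0.015. Sel1l, the scaffold of the degradation ligase, was at 115 to 176 CPM in CAF and 101 to 167 CPM in normal libraries (log2 fold change 0.092).

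Other genes of the pathway were taken from lists that do not hold the 36 genes. Of 135 tested, 0 passed in either direction by edgeR (1.10% of all genes). At an unadjusted p under 0.05, 9 were higher and 10 lower in CAF, against 7.37% and 7.97% of all genes. The median log2 fold change was 0.23, against 0.06 over all genes. DESeq2 called 3 higher and 7 lower of 144, against 3.12% and 4.17% of all genes. Among UPR sensors and regulators (14 tested, median -0.23) the smallest p-values were those of Atf3, a stress-induced factor downstream of ATF4, and Ern2, the IRE1 form of epithelial secretory cells. Atf3 was at 518, 394 and 309 CPM in CAF and 1233, 997 and 780 CPM in normal libraries 1 to 3 (log2 fold change -1.30, adjusted p = 0.121 by edgeR). Ern2 was at 23.4, 11.9 and 22.3 CPM in CAF and 254, 174 and 18.8 CPM in normal libraries 1 to 3 (log2 fold change -2.99, adjusted p = 0.127 by edgeR). Normal library 3 lay within the CAF range for Ern2 and above it for Atf3.

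Among degradation genes (18 tested, median 0.15) the smallest p-values were those of Edem2, a mannosidase-like factor, and Derl3, a derlin of secretory cells. Edem2 was at 57.1, 43.8 and 53.2 CPM in CAF and 172, 132 and 85.0 CPM in normal libraries 1 to 3, without overlap (log2 fold change -1.35, edgeR adjusted p 0.104). Derl3 was at 5.85, 2.21 and 1.62 CPM in CAF and 48.6, 22.8 and 2.50 CPM in normal libraries 1 to 3, with overlap at normal library 3 (log2 fold change -3.32, edgeR adjusted p 0.152). In the folding and oxidation list (22 tested, median 0.098) Pdia2, an isomerase known from pancreas and stomach, was at 20.5, 4.55 and 9.87 CPM in CAF and 1285, 1039 and 71.3 CPM in normal libraries 1 to 3 (log2 fold change -6.25, adjusted p = 0.0571 by edgeR). Without normal libraries 1 and 2 the values were -2.74 for Pdia2, 0.065 for Derl3 and 0.058 for Ern2. These are the libraries in which Pgc, the chief cell zymogen progastricsin, was at 159236 and 94151 CPM, against 11196 CPM in normal library 3 and 1069 to 3343 CPM in CAF. Ppic, a peptidyl-prolyl isomerase, was the other gene of smallest p in this list, higher in CAF at 358, 530 and 425 CPM in CAF and 182, 132 and 213 CPM in normal libraries 1 to 3 (log2 fold change 1.32, edgeR adjusted p 0.0998).

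In the collagen-folding list all 17 tested genes had a positive log2 fold change, with a median of 0.74, against 53.9% positive and a median of 0.06 over all genes, and 0 passed. P4ha3, a catalytic subunit of collagen prolyl 4-hydroxylase, was at 30.7, 70.4 and 61.3 CPM in CAF and 5.71, 13.9 and 10.0 CPM in normal libraries 1 to 3 (log2 fold change 2.54, adjusted p = 0.0617 by edgeR). Without normal libraries 1 and 2 its log2 fold change was 2.53, a value that rests on 8 counts in the lone normal library left. Fkbp14, a prolyl isomerase of collagen, was at 30.7, 62.0 and 58.4 CPM in CAF and 14.7, 21.5 and 22.5 CPM in normal libraries 1 to 3 (log2 fold change 1.41, edgeR adjusted p 0.135). The summed level of the list was 4152, 3761 and 3416 CPM in CAF and 1408, 1427 and 3748 CPM in normal libraries 1 to 3. The sum of normal library 3 thus lay inside the CAF range, and this library had the largest fibroblast marker share of the normal libraries (1.62%). Serpinh1 weighs most in these sums, at 1962, 1418 and 1112 CPM in CAF and 453, 446 and 1688 CPM in normal libraries 1 to 3. They therefore do not describe the list as a whole. The lists of translocation and glycosylation, of vesicle coats and Golgi transport and of the amino acid response had medians of 0.15, 0.23 and 0.20, with 20, 27 and 17 genes tested. Their genes of smallest p were Ostc and Sec61a2 (log2 fold changes of 0.57 and 1.13), Sec23a and Sar1a (1.16 and 0.71), and Nars and Slc3a2 (0.66 and 0.54), and none passed (adjusted p from 0.231 to 0.503 by edgeR). The part of gland RNA and of library base composition in these differences was not tested beyond the fits named.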

How the data were processed

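The authors deposited raw counts per gene symbol for 6 libraries, and these were the values tested. Per the submitters' processing notes, cutadapt, STAR, HTSeq and DESeq2 were used on build mm10. The sources used here do not give the annotation, the use of strand or the collapsing of molecular identifiers. The authors' deposited table also gives their own log2 fold change and adjusted p-value, quoted where named. All 14228 genes listed reach at least 6 counts in some library.

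The test was edgeR 4.0.16 (R 4.3.3), with filterByExpr by group, trimmed mean of M-values, glmQLFit and glmQLFTest on the group term, Benjamini-Hochberg adjustment over 10148 genes, threshold 0.05. CPM are on the scaled library sizes. Standard errors and 95% intervals were derived from the F statistic of each gene and are approximate. The 0-count limit is 3 counts in a library and covers counting error only. Replicates of a group differed beyond sampling noise (chi-square per gene 11.3 to 77.1). Alternatives used DESeq2 1.42.0 and limma 3.58.1. GC content came from GENCODE M21 transcripts (98.8% of tested genes matched), and the side of a library from the sign of its correlation with GC over all tested genes. The test was tested on simulated counts.

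The members, the lists and the motifs were chosen with earlier results of these data known. All members are named, and of each pathway list the called genes or the 2 of smallest p.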

Additional observations from a re-analysis of the deposited data

How the results depend on the processing

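Alternatives to the fit were 16 listed at the start and 3 chosen after seeing the data (the GC side as a block, and each side alone). No paired analysis was possible because the labels give the groups no shared replicate numbers. With an arm of 1 library, that library is assumed to vary like the other group. The number of ER members called was 0 in the main fit, 2 with DESeq2 and 3 with the GC-poor libraries alone (Asns and Herpud1 lower, Pdia5 higher), where CAF libraries 2 and 3 alone set the spread, and 0 to 3 with 1 library left out, 3 without normal library 3. Pathway genes called were 0, 10 with DESeq2, 1 without a filter (Pdia2), 21 with the GC-poor libraries alone and 0 to 15 with 1 library left out. All genes called were 112, against 935 with DESeq2, 65 with limma-voom, 0 with the gland share as a covariate, 0 without normal libraries 1 and 2, 0 with the GC-rich and 1521 with the GC-poor libraries alone, and 0 (without normal library 1) to 1193 (without normal library 3) with 1 library left out. The members' median log2 fold change was 0.38, or 0.62 both with the gland share as a covariate and without normal libraries 1 and 2, and 0.17 to 0.56 with 1 library left out.

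Fold changes of members that turned sign were not called in any of these fits. With the log2 gland share as a covariate these were Asns (log2 fold change 1.91), Dnajb9 (2.30), Dnajc3 (-0.82), Herpud1 (0.0040), Sdf2l1 (2.38), Trib3 (-5.32) and Xbp1 (1.16). Without normal libraries 1 and 2 they were Dnajb9 (0.68), Dnajc3 (-0.11), Sdf2l1 (0.99), Trib3 (-1.12) and Xbp1 (0.27). On the GC-rich side they were Atf4 (0.022), Hspa5 (-0.78), Pdia3 (-1.45), Sdf2l1 (0.10), Ssr3 (-0.87) and Ssr4 (-0.19). On the GC-poor side they were Atf6 (-0.37), Creld2 (-0.38), Hspa5 (-0.21), Hyou1 (-0.67) and Sel1l (-0.56), and with the side as a block Hspa5 (-0.46) and Pdia3 (-0.068). Hyou1 turned with limma-voom (-0.20), and Sdf2l1 without a filter (0.0083), with at least 10 counts in 3 libraries (0.028) and in a fit adjusted for mice per library (0.28). With 1 library left out the range was -0.39 to 0.63 for Creld2, -0.72 to 0.081 for Dnajb9, -0.40 to 1.04 for Hyou1, -0.011 to 0.59 for Manf, -0.12 to 0.33 for Sel1l, -0.37 to 0.15 for Sdf2l1, -0.12 to 0.25 for Ssr4, -0.19 to 2.43 for Trib3 and -0.21 to 1.19 for Hspa5. The cause was not tested.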

Other observations

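The ATF4-type element that the promoters of Herpud1, Asns and Chac1 share was also looked up in the other genes. Among tested pathway genes with a RefSeq promoter, 9 held it in the 250 bases before the start site. Atf3 and Nupr1, a stress-induced chromatin protein, were lower in all 3 CAF libraries than in all 3 normal libraries, with Nupr1 at 503, 442 and 401 CPM in CAF and 1322, 769 and 730 CPM in normal libraries 1 to 3 (log2 fold change -1.07, adjusted p = 0.208 by edgeR). Faf2, of ER-associated degradation, was higher without overlap (log2 fold change 0.56). The other 6, Aars, Cnpy2, Gars, Kdelr1, Pycr1 and Txndc5, overlapped between the groups, at log2 fold changes from -0.33 to 0.54. Over all 8100 tested genes with a promoter, 201 held the element. Their median log2 fold change was 0.061, against 0.050 for all 8100, and 8.96% of them were lower in CAF without overlap, against 9.44%. At an unadjusted p under 0.05, 23 of the 201 were lower in CAF (11.4%, against 7.85% of the 8100) and 14 higher (6.97%, against 6.85%). Herpud1, Asns and Chac1 are among the 201, among the 23 and among those lower without overlap. The motif was chosen with their values known, so these shares support nothing. The 13 tested genes with an ERSE, 7 of which are members, had a median log2 fold change of 0.31. That is the value of Hspa5, whose sign turned in 5 settings. At an unadjusted p under 0.05, 0 of the 13 were higher and 2 lower by edgeR, and without overlap 1 lay above and 1 below the normal libraries.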
